A study of Mus musculus with 4 samples.

Results

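The genes described are those of asparagine, serine and one-carbon synthesis in mouse liver, with proline and cysteine synthesis beside them, namely Asns, Phgdh, Psat1, Psph, Shmt2, Mthfd2, Aldh1l2, Aldh18a1, Pycr1 and Cth. A gene was taken where a feature that is no control carried its symbol in the scanner files, which gave 10 of 30439 genes or transcripts and 15 of 39392 array features. The genes were selected on their genotype differences in these same arrays, so every genotype difference of theirs below is a description without a test. Asns, Psat1, Phgdh and Mthfd2 gave higher signals on the arrays labelled Drp1LiKO, at least 2.20-fold in each pair with the probe read for each gene, while Shmt2 gave a lower one. With normexp, another background correction, which adds 50 units to each signal, Phgdh and Mthfd2 stayed higher but short of 2-fold. Their Cont signals lay below 50 units, so that addition by itself pulls their differences towards 0.

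Male C57BL/6J mice had been on a high-fat diet (HFD) for 24 weeks. Drp1LiKO mice carried floxed Drp1 (Dnm1l, a mitochondrial fission GTPase) on both chromosomes and an Alb-Cre transgene, in which the albumin promoter drives Cre in hepatocytes. Cont mice were sibling littermates with the same floxed allele and no Cre by the study's paper, while the labels call them wild type. Total liver RNA was hybridised to 4 one-colour arrays, 1 a group, namely Cont, Drp1LiKO, Cont Refed and Drp1LiKO Refed. Refed mice were fasted for 17 h by the sample records and fed again for 4 h, and the study's methods give a slightly shorter fast. The labels of the other pair name no feeding state, and it is called the non-Refed pair here. The study's paper describes its liver array comparisons as made in fasting and refed states. The number of mice behind an array is not given in the sources used here. With 1 array a group there was no replicate and no test between conditions, and the SE printed below is the scanner software's error estimate for a spot, which leaves out differences between mice. In liver tissue, fewer cells of a type and less RNA per cell cannot be told apart.

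All arrays came from 1 slide and 1 scan. The 75th percentile of the signal lay between 357 and 722 units, and 48.7% to 58.2% of features were well above background, a flag set by the scanner software. Both shares and percentiles were higher on the Drp1LiKO array of each pair. The 1 Dnm1l probe, which starts at base 3993 of its transcript, differed by -0.21 log2 (SE 0.20) in the non-Refed pair and by -0.12 log2 (SE 0.20) in the Refed pair. The position of the deleted exons is not given in the sources used here, so the probe checks neither genotype label, and each direction below rests on the label. The 6 hepatocyte markers (among them Alb, Ttr and Hnf4a) were well above background on every array. Of these, 1 was higher by 2-fold in each pair (Tat by 1.04 log2 in the non-Refed pair, Cps1 by 1.24 log2 in the Refed pair) and 0 lower. Of all genes measured, 8.06% and 8.05% were higher and 5.19% and 6.33% lower by that rule. Alb differed by -0.52 and -0.55 log2 and Ttr by -0.63 and -0.66 log2. The summed signal of the 6 hepatocyte markers, in units of the 75th percentile, was 1469 in Cont, 1089 in Drp1LiKO, 1796 in Cont Refed and 1274 in Drp1LiKO Refed. Alb and Ttr were the brightest of the 6 on each array and made up most of each sum. Of the 6 markers, 4 lay below 0 in each pair, but 1 and 4 with quantile normalization. Among all genes measured, 56.3% and 53.9% lay below 0 (48.8% and 47.6% with quantile normalization).

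Cells make serine from a glycolytic intermediate in a short chain of enzymatic steps, and serine then gives up a carbon to folate, in mitochondria or in the cytosol, for the synthesis of purines, thymidylate and methionine. Asparagine is made from aspartate and glutamine, and proline from glutamate. Many genes of these pathways are textbook targets of ATF4, the transcription factor of the integrated stress response, while a healthy liver mostly breaks these amino acids down.

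The bases that report on the serine and cysteine enzymes are shown first for the probes that lie in coding sequence, since Phgdh, Psat1, Psph and Cth are each read by a pair of probes that are compared below. They are 60-base array features from the minus strand of mm9, printed 5′ to 3′ with no part in capitals. Phgdh lies at chr3:98117303-98117361, Psat1 at chr19:15991586-15991645, Psph at chr5:130272308-130272367 and Cth at chr3:157560183-157560242.
Phgdh: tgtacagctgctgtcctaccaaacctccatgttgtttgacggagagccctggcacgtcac
Psat1: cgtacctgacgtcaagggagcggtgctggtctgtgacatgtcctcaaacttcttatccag
Psph: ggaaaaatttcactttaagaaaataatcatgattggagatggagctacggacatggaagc
Cth: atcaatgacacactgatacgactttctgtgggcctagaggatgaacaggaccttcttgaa

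The promoters are shown for the genes whose window held the motif TGATGNAA, a core of the site that ATF4 dimers are known to bind. RefSeq windows (GRCm38.p6) of 300 bases around a gene's start were at hand for 8 of the 10 genes, and Aldh1l2 and Cth had none. Searched on both strands, the motif was found in 2 of these 8 genes, against 4.51% of 27025 genes with a window. It was also found in 7 of the 20 ATF4 regulators and other targets with a window. In Asns (minus strand, chr6:7693210-7693459) it begins 23 bases before the gene's start, and in Pycr1 (minus strand, chr11:120643749-120643998) it begins 103 bases before. The 250 bases before each start follow, with the motif in capitals. A match is a description of letters and not of a bound site.
Asns: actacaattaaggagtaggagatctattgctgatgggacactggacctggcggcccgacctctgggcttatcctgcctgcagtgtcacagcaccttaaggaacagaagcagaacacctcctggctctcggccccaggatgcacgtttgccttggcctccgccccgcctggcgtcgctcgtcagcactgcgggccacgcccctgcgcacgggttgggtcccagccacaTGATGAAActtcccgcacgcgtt
Pycr1: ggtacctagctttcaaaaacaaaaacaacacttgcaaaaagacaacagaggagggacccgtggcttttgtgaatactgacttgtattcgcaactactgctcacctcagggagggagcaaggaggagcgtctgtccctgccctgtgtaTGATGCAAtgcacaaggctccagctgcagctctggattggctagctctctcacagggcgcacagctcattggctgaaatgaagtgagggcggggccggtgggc

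Values of the genes are log2 of the processed signal over the array's 75th percentile, and a gene was counted as higher or lower at a 2-fold difference as measured, with the brighter side well above background. Where the dimmer side was not well above background, the fold is printed as a bound, "at least N-fold", taken against its own signal or, where that is higher, the dimmest signal on that array that still passed the flag. All 10 genes passed the background flag on some array, and 4 (Asns, Psph, Shmt2 and Cth) passed it on all 4. The other 6 passed it on a Drp1LiKO array, so for them the Cont level was mostly a bound.

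**Figure D1:**
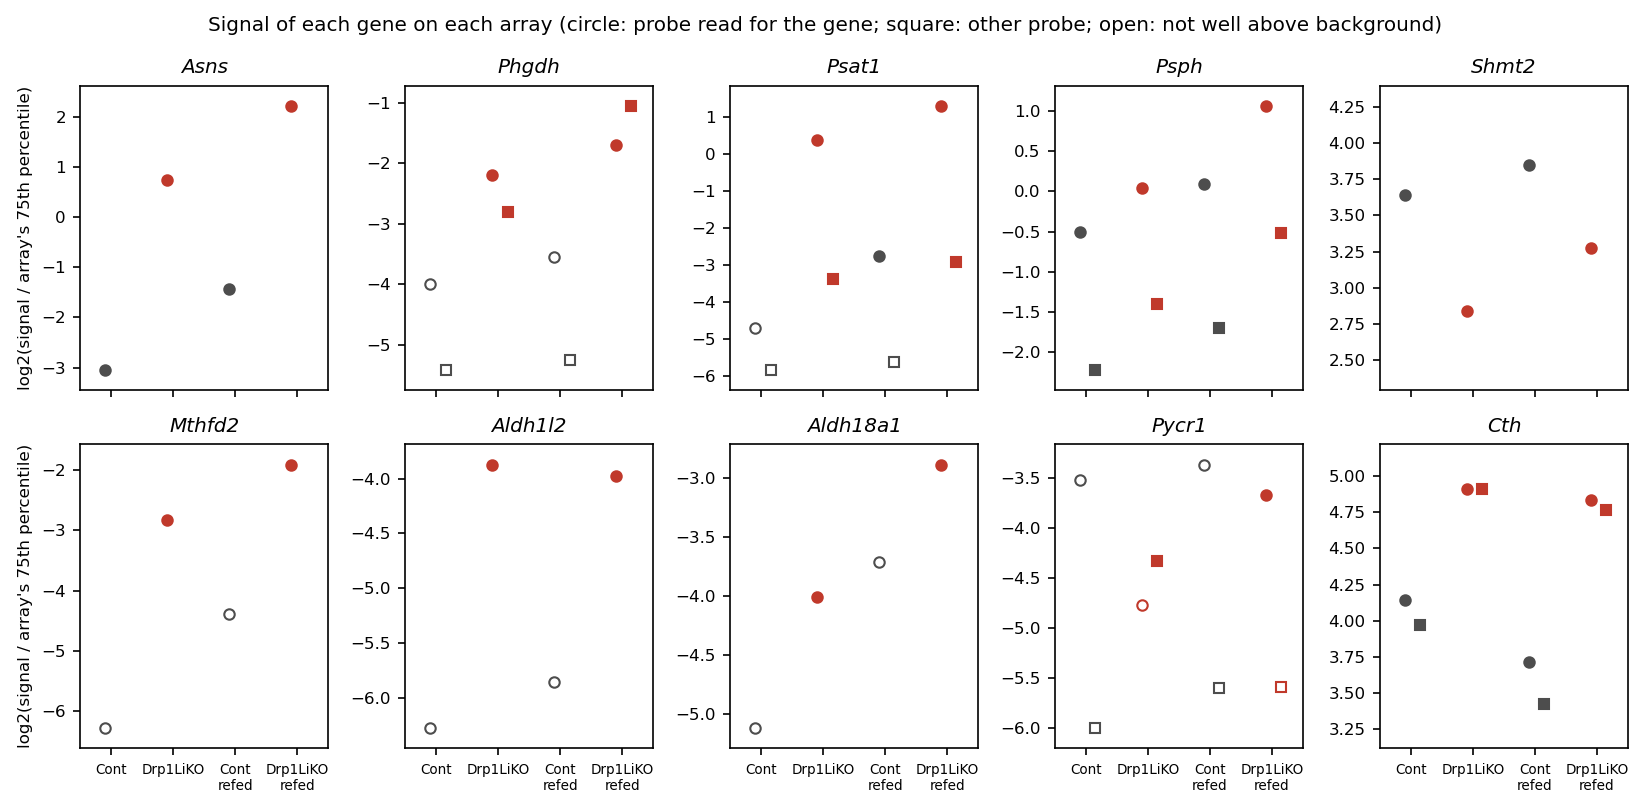
Signal of each of the 10 genes on the 4 arrays, as log2 of the signal over the array's 75th percentile, with a separate axis for each gene. Circles are the probe read for the gene, squares its other probe and open symbols signals not well above background; grey is Cont and red is Drp1LiKO. For Asns the 4 points run from -3.04 to 2.21 with both red points above both grey ones, while for Shmt2 both red points lie below the grey ones.

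In the non-Refed pair, 6 of 9 genes measured (Asns, Phgdh, Psat1, Mthfd2, Aldh18a1 and Aldh1l2) were higher on the Drp1LiKO array and 0 were lower. Over all genes measured in that pair 8.06% were higher and 5.19% lower. Read at the bound, 4 genes were at least 2-fold higher, against 4.32% of all genes. In the Refed pair, 6 of 10 genes (the same without Aldh18a1 and with Cth) were higher and 0 lower, against 8.05% and 6.33% of all genes, and at the bound 5 were higher, against 4.03%. The median difference over the genes was 1.80 log2 in the non-Refed pair and 1.48 log2 in the Refed pair, and 0.76 and 1.04 log2 at the bound. The median over all genes on all 4 arrays was -0.12 and -0.08 log2. Since the genes were selected on this contrast, nothing is read from these counts.

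Asns, which makes asparagine from aspartate and glutamine, was at -3.04 log2 in Cont and 0.74 in Drp1LiKO, and at -1.44 in Cont Refed and 2.21 in Drp1LiKO Refed. It was well above background on each array, with both Drp1LiKO values above both Cont values. The difference was 3.78 log2 (SE 0.26), or 13.7-fold, in the non-Refed pair and 3.65 log2 (SE 0.21), or 12.5-fold, in the Refed pair. With normexp background correction the differences were 2.80 and 3.19 log2. Among the 14447 genes that passed the flag on each of the 4 arrays it was the 5th largest in each. Among all genes measured in a pair, with a dim side at its bound, Asns ranked 9 of 18040 and 13 of 17446, and Psat1 ranked 4 and 6. Aspg, an asparaginase that breaks asparagine down, differed by -0.90 and -0.99 log2 (SE 0.20 each), and by -0.60 and -0.79 log2 with quantile normalization.

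The first serine step is catalysed by Phgdh. Its probe gave -2.19 log2 in Drp1LiKO and -1.70 in Drp1LiKO Refed, while -3.99 in Cont and -3.55 in Cont Refed were not well above background. The gene was at least 3.41-fold higher in the non-Refed pair and at least 3.60-fold higher in the Refed pair. Its coding probe printed above gave at least 2.22-fold and at least 5.60-fold. With normexp the differences of Phgdh were 0.66 and 0.74 log2.

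Psat1, the aminotransferase of the second step, was at 0.38 log2 in Drp1LiKO and not well above background in Cont, where it read -4.71. It was at -2.75 in Cont Refed and 1.30 in Drp1LiKO Refed. It was at least 20.3-fold higher in the non-Refed pair, and in the Refed pair it was higher by 4.04 log2 (SE 0.27), or 16.5-fold. With normexp the differences were 3.01 and 3.02 log2, and with the median over its probes 3.77 and 3.37 log2, so the non-Refed value lay below that bound in both settings. The coding probe printed above was dim on both Cont arrays and gave differences of at least 0.58 and 0.63 log2, so the pair of Psat1 probes shared a direction and differed in the size they could show.

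Psph, the phosphatase of the last serine step, was at -0.51 log2 in Cont, 0.05 in Drp1LiKO, 0.10 in Cont Refed and 1.06 in Drp1LiKO Refed. Drp1LiKO was the higher array within each pair, although 0.05 in Drp1LiKO lay below 0.10 in Cont Refed. The differences were 0.56 log2 (SE 0.21) and 0.96 log2 (SE 0.21), short of 2-fold. The coding probe gave 0.81 and 1.19 log2.

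Among the folate enzymes, Shmt2, the mitochondrial hydroxymethyltransferase that splits serine into glycine and a folate-bound carbon, was at 3.64 log2 in Cont, 2.84 in Drp1LiKO, 3.85 in Cont Refed and 3.28 in Drp1LiKO Refed. Both Drp1LiKO values lay below both Cont values, with differences of -0.80 log2 (SE 0.20) and -0.57 log2 (SE 0.20). Before scaling, its processed signals were 5745, 5158, 5146 and 5088 units in the same order, so most of the difference entered with the arrays' 75th percentiles, and with quantile normalization it was -0.63 and -0.43 log2. Its cytosolic counterpart Shmt1 differed by -0.71 log2 (SE 0.20) and -0.22 log2 (SE 0.20), and by -0.59 and -0.12 log2 with quantile normalization. The other Shmt1 probe gave -0.17 and 0.11 log2.

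Mthfd2, a mitochondrial methylenetetrahydrofolate dehydrogenase, was at -2.82 log2 in Drp1LiKO and -1.91 in Drp1LiKO Refed, while -6.28 in Cont and -4.39 in Cont Refed were not well above background. It was at least 2.20-fold and at least 3.11-fold higher, and with normexp the differences were 0.78 and 0.79 log2. Mthfd1l, the mitochondrial enzyme that releases formate, was no member but was counted as higher in both pairs, by 1.78 log2 (SE 0.34) and 2.01 log2 (SE 0.33). Mthfd2l, a close relative of Mthfd2, differed by 0.66 log2 (SE 0.32) and 0.48 log2 (SE 0.33). With normexp background correction Mthfd2l stood at 0.01 and -0.02 log2 and Mthfd1l at 0.79 and 1.03 log2. The cytosolic Mthfd1 differed by -0.37 and -0.14 log2, and by -0.15 and -0.002 log2 with quantile normalization.

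Aldh1l2, the mitochondrial formyltetrahydrofolate dehydrogenase, was at -3.87 log2 in Drp1LiKO and -3.98 in Drp1LiKO Refed, with -6.27 and -5.85 on the Cont arrays not well above background. The bound left it at least 1.06-fold higher in the non-Refed pair and gave no fold in the Refed pair. Its cytosolic counterpart Aldh1l1 was well above background on every array and differed by -0.74 log2 (SE 0.20) and -0.08 log2 (SE 0.20), the latter 0.06 log2 with quantile normalization.

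**Figure D2:**
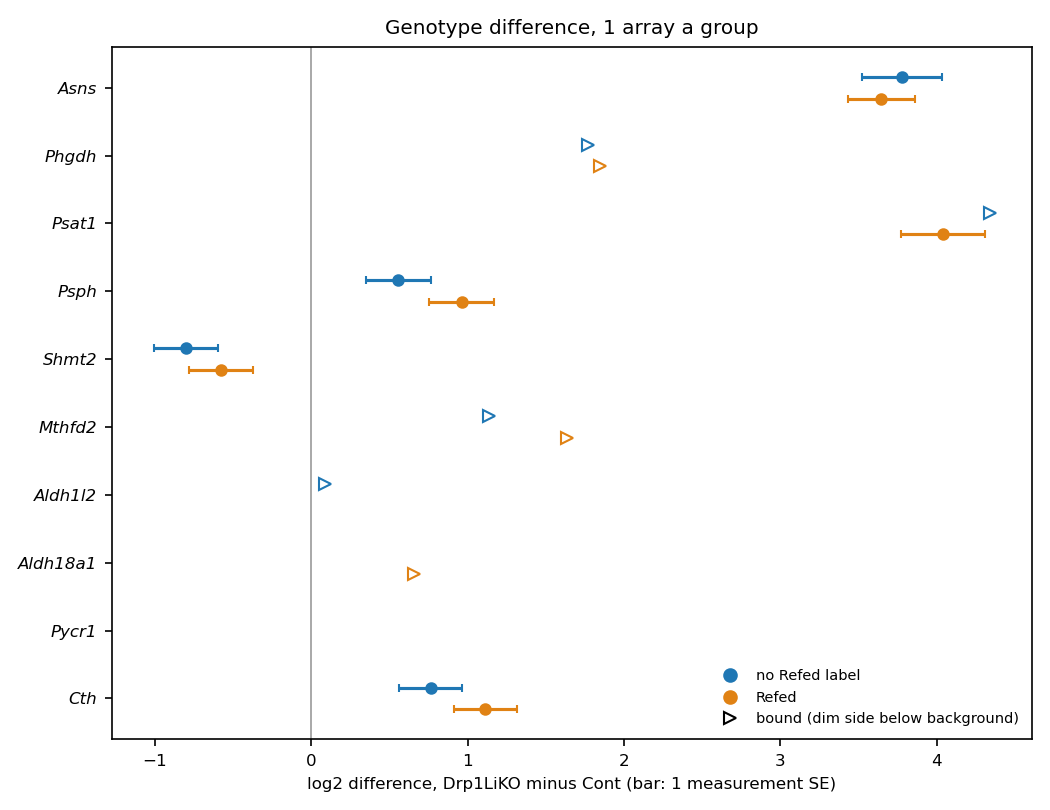
Genotype differences, Drp1LiKO minus Cont, in log2 units for the non-Refed pair (blue) and the Refed pair (orange), with bars of 1 measurement SE and open triangles at a bound where Cont was not well above background. Asns and Psat1 lie near 4 log2, Shmt2 lies left of 0, and Pycr1 has no value because neither pair gave a fold.

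In proline synthesis, Aldh18a1, which turns glutamate into the semialdehyde precursor, was at -4.01 log2 in Drp1LiKO and -2.89 in Drp1LiKO Refed, with -5.12 and -3.71 on the Cont arrays not well above background. No fold could be given for the non-Refed pair, and the Refed pair gave at least 1.58-fold. Pycr1, the mitochondrial reductase of the last proline step, was well above background only in Drp1LiKO Refed, at -3.67 log2, and its other probe only in Drp1LiKO, at -4.33 log2. The pair of Pycr1 probes disagreed, and neither gave a genotype fold. The related reductase Pycrl differed by -0.37 and -0.13 log2 (SE 0.20 each), and its other probe by -0.24 and 0.11 log2.

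The proline-degrading Prodh differed by -0.91 log2 (SE 0.20) in the non-Refed pair and -0.22 log2 (SE 0.20) in the Refed pair. With quantile normalization the Prodh differences were -0.68 and -0.05 log2. Oat, which links ornithine to the same semialdehyde, differed by -0.73 and -0.71 log2, and by -0.43 and -0.52 log2 with quantile normalization. Of the 9 other proline genes, 0 passed 2-fold in either pair, and 9 and 8 of them had a difference below 0 (8 and 7 with quantile normalization). Of all genes measured, 56.3% and 53.9% lay below 0 (48.8% and 47.6% with quantile normalization). Past 2-fold, 8.06% and 8.05% of all genes were higher and 5.19% and 6.33% lower.

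Cth, the lyase that makes cysteine from cystathionine, was at 4.14 log2 in Cont, 4.91 in Drp1LiKO, 3.72 in Cont Refed and 4.83 in Drp1LiKO Refed. Both Drp1LiKO values lay above both Cont values. The difference was 0.76 log2 (SE 0.20) in the non-Refed pair and 1.11 log2 (SE 0.20), or 2.17-fold, in the Refed pair, and the coding probe gave 0.94 and 1.34 log2. Cbs, which makes cystathionine in the step before, differed by -0.42 and -0.35 log2 (SE 0.20 each), and by -0.08 and -0.22 log2 with quantile normalization. Mpst, which takes sulfur from a cysteine product, was counted as lower in both pairs, at -1.13 and -1.19 log2, although with quantile normalization the non-Refed difference was -0.95 log2, short of 2-fold.

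**Figure D3:**
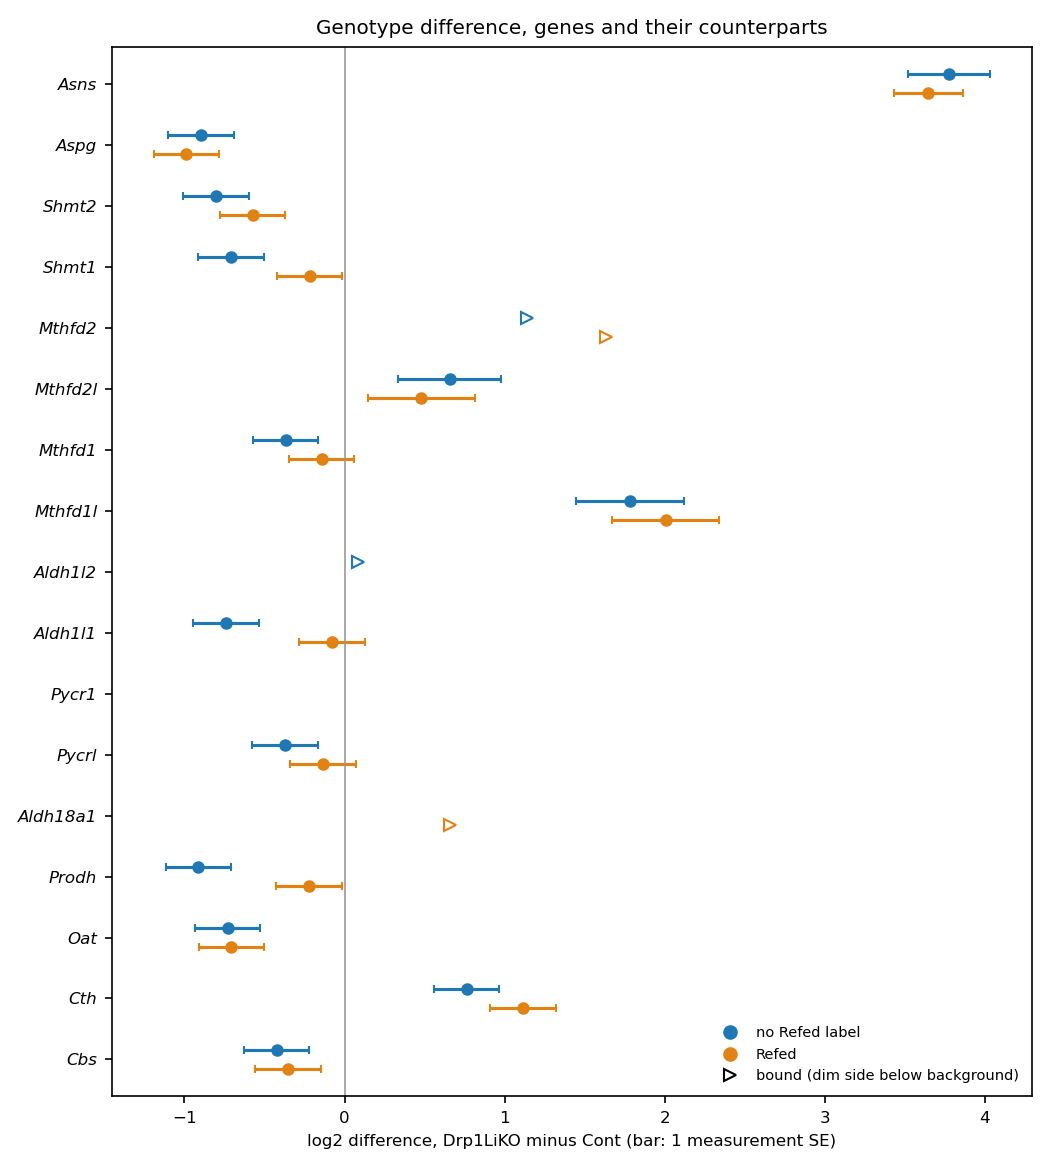
Genotype differences of the genes beside the enzymes of the other compartment or the opposite direction, in log2 units, blue for the non-Refed pair and orange for the Refed pair, with bars of 1 measurement SE and open triangles at a bound. Asns lies near 3.7 log2 and Aspg near -0.9, and Mthfd1l lies near 2 in both pairs.

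In the wider pathways, 1 of 10 other asparagine, aspartate and glutamine genes measured was higher in each pair, and 0 and 1 were lower. Of 16 genes of serine and glycine use, 0 passed 2-fold in either pair, and 14 and 12 lay below 0 (12 in each pair with quantile normalization), beside the 56.3% and 53.9% of all genes. Of 17 other folate genes measured, 2 and 1 were higher and 0 lower. Of 13 transsulfuration and cysteine genes, 0 and 1 were higher and 1 and 2 lower. The lists overlap. Got1, at 2.13 log2 in the Refed pair, is the gene counted as higher there in both this list and the asparagine, aspartate and glutamine list. Shmt1 stands in both the serine and the folate list. Of the ATF4 regulators and other targets, 8 of 21 measured were higher in the non-Refed pair and 5 of 22 in the Refed pair, where 1 was lower. Over all genes measured in each pair, 8.06% and 8.05% were higher and 5.19% and 6.33% lower.

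Atf3, a stress-induced transcription factor, was higher by 5.58 log2 (SE 0.24) and 4.42 log2 (SE 0.21). Nupr1, a stress-induced chromatin protein, was higher by 5.21 and 4.51 log2, and Trib3, a pseudokinase induced by ATF4, by 4.02 and 3.43 log2. Ddit3, the stress factor CHOP, was higher by 2.09 and 3.60 log2. These were the listed genes counted as higher in both pairs. The following were picked after their values were seen. Atf4 itself differed by 0.61 and 0.51 log2 (SE 0.20 each), and its other probe by 0.95 and 0.74 log2, all short of 2-fold. Fgf21, a liver hormone, differed by 2.58 and -0.67 log2, Cebpb by -0.05 and -0.39 log2 and Vldlr by -0.60 and -0.93 log2. Stc2 was at least 2.97-fold lower in the Refed pair.

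Nearest to the 4-array profile of Asns, by Euclidean distance between profiles centred on their mean over 4 arrays, was Gsta1, a glutathione transferase, at 0.38 log2. Tuba8 followed at 0.90, Gm10639 at 1.01, Cbr3 at 1.12 and Ifi44 at 1.32. Gsta1 differed by 3.97 and 3.82 log2 between genotypes. These are descriptions over 4 arrays among 14447 genes.

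Refed arrays were compared with non-Refed arrays within a genotype. In Cont, 5 of the 10 genes were measured, of which 2 were higher and 0 lower, against 4.47% and 5.83% of all genes. In Drp1LiKO, 4 of 10 were higher and 0 lower, against 5.61% and 7.15% of all genes. These comparisons share their arrays with the genotype comparisons. The median over all genes on all 4 arrays was 0.11 log2 in Cont and 0.12 log2 in Drp1LiKO.

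Asns was higher in the Refed array of both genotypes, by 1.60 log2 (SE 0.26) in Cont and by 1.47 log2 (SE 0.20) in Drp1LiKO. Psat1 was at least 2.32-fold higher in Cont and 0.91 log2 (SE 0.20) higher in Drp1LiKO. Psph differed by 0.61 log2 (SE 0.21) and 1.01 log2 (SE 0.20). These enzymes thus had their highest value in Drp1LiKO Refed.

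For Mthfd2 and Aldh18a1 the comparison could be made in Drp1LiKO, where they differed by 0.91 log2 (SE 0.22) and 1.12 log2 (SE 0.30). Phgdh differed there by 0.49 log2 (SE 0.22) with its probe and by 1.75 log2 (SE 0.22) with the coding probe. Pycr1 was at least 2.13-fold higher with its probe, and its other probe lay the other way.

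Shmt2 differed by 0.21 and 0.44 log2 (SE 0.20 each), and Aldh1l2 by -0.11 log2 (SE 0.32) in Drp1LiKO. Cth differed by -0.43 log2 (SE 0.20) in Cont and -0.08 log2 (SE 0.20) in Drp1LiKO.

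**Figure D4:**
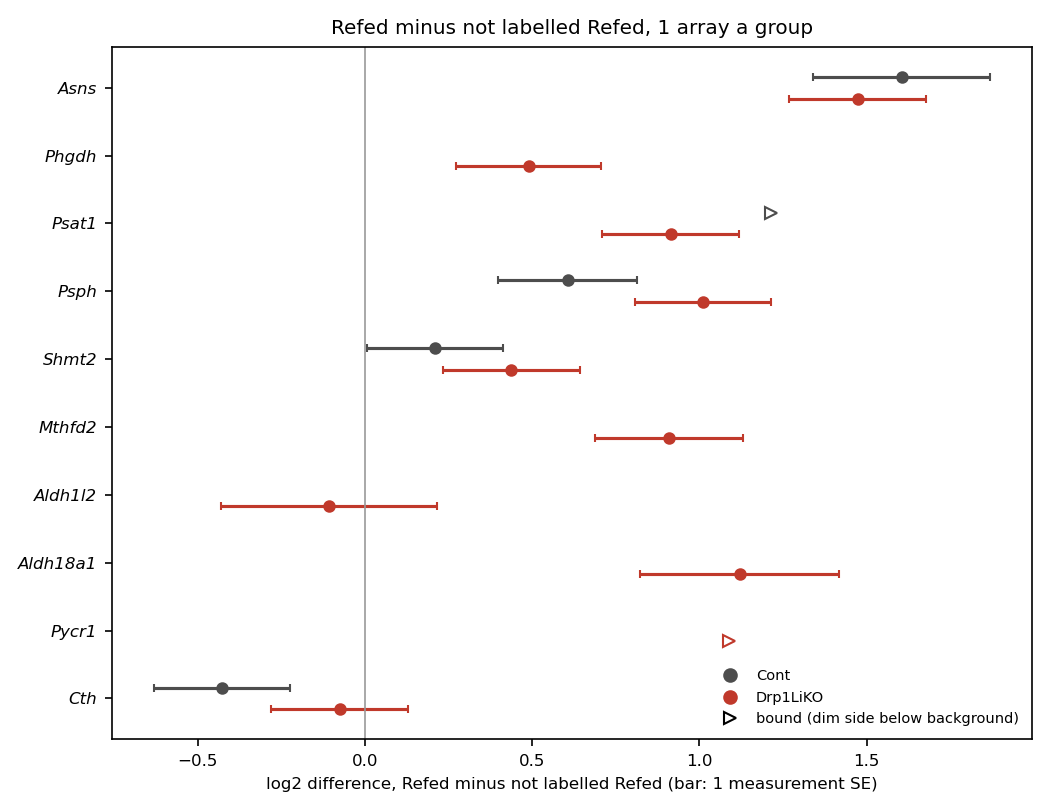
Differences of the Refed array from the non-Refed array, in log2 units, grey for Cont and red for Drp1LiKO, with bars of 1 measurement SE and open triangles at a bound. Asns lies between 1.4 and 1.7 log2 in both genotypes, and Cth lies left of 0 in both.

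Whether the genotype difference itself changed with refeeding could be read for the 4 genes measured on all 4 arrays. The Refed difference minus the non-Refed one was -0.13 log2 (SE 0.33) for Asns, 0.40 (SE 0.29) for Psph, 0.23 (SE 0.29) for Shmt2 and 0.35 (SE 0.29) for Cth. Each lay within 2 SE of 0. None of the 4 passed 2-fold, against 1.87% of all genes higher and 2.38% lower.

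Markers of other liver cells were read beside these genes, and their part in the results was not tested. The counts below stand beside the 8.06% and 8.05% of all genes that were higher and the 5.19% and 6.33% that were lower. Of 8 Kupffer cell and macrophage markers, 3 were higher in the non-Refed pair and 2 in the Refed pair, Lyz2 (1.38 and 1.53 log2) and Trem2 (2.43 and 1.64 log2) in both. Of the others, Itgam differed by -0.88 and -0.66 log2 and Clec4f by -0.16 and 0.34 log2. Their summed signal, in units of the 75th percentile, was 63.2 in Cont, 70.0 in Drp1LiKO, 65.1 in Cont Refed and 104 in Drp1LiKO Refed. Such a sum weighs the brightest marker most, here Cd5l, at 5.12, 5.38, 5.27 and 6.09 log2 in the same order. Ccr2 was not well above background in Cont or Cont Refed. Of 4 cholangiocyte markers measured, 2 and 1 were higher, with Sox9 at 1.24 log2 in the non-Refed pair and at least 3.18-fold higher in the Refed pair, where Cont Refed did not pass the flag, while Epcam passed the flag on no array. Their summed signal was 0.49, 1.08, 0.56 and 1.02, with Spp1 the brightest of them on each array, at -1.94, -0.54, -2.16 and -1.39 log2. Of the proliferation markers, 2 of 5 and 1 of 4 measured were higher, with Mcm2 at 1.17 and 1.64 log2. Their summed signal was 3.60, 4.31, 3.53 and 5.44, most of it from Pcna, at 1.70, 1.83, 1.66 and 2.21 log2. Top2a passed the flag on no array. Of the 6 stellate cell and fibroblast markers, 2 and 0 were higher, and of the 4 endothelial markers 0 in either pair. Of the T and B cell markers, 1 and 0 of 4 measured were higher. Of the neutrophil markers, 2 of 3 measured were lower in the non-Refed pair and 2 of 4 higher in the Refed pair. At the bound 1 of the 4 was higher there, since Mpo passed the flag only in Drp1LiKO Refed.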

How the data were processed

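Liver RNA of 4 groups, 1 sample each, was measured on one-colour Agilent mouse 4x44K v2 arrays (60-base probes, mm9 coordinates). The deposited scanner files hold intensity values: the authors' Feature Extraction software (10.7.1.1 per the file headers, 9.5.1.1 per the labels) subtracted background and wrote a processed intensity and its error, which includes a 10% multiplicative term. The study's methods name another array format and RNA kit than the labels. The deposited value table, also intensity, was close to quantile-normalized scanner signals for most features (median absolute difference 4.53e-05 log2, largest 2.97) and served as an alternative.

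Values were log2 of the processed intensity minus the array's 75th percentile. Control and outlier-flagged spots were left out and repeated spots averaged. Their median SD was 0.061 to 0.068 log2. A gene was read from the probe well above background on most arrays, then the brightest. Calls needed 2-fold with the brighter side well above background. The number of arrays limits the precision, and no p-value was computed.

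Named were all 10 genes, their counterparts by role (1 is not reported here), other listed genes called alike in both genotype comparisons, and the 5 genes nearest to Asns. The members and lists were chosen with earlier results of these data known. Alternatives were median scaling, quantile normalization, normexp (limma 3.58.1, R 4.3.3; offset 50), the authors' table, the median over probes, both sides well above background, a 1.5-fold threshold and, chosen after seeing the data, the dim side at its bound. Python 3.11.15 was used, and the calling step was tested on simulated data.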

Additional observations from a re-analysis of the deposited data

Results flagged for a closer look

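Ddit3, read beside the 10 genes as a stress-response gene, lay on opposite sides of 0 with refeeding in the 2 genotypes. It was at 0.29 log2 in Cont and -0.50 in Cont Refed, a difference of -0.79 log2 (SE 0.21), and at 2.38 in Drp1LiKO and 3.10 in Drp1LiKO Refed, a difference of 0.72 log2 (SE 0.20). These differ by 1.51 log2, and neither passed 2-fold. Fgf21 passed 2-fold in opposite directions, with refeeding differences of 1.47 log2 in Cont and -1.77 log2 in Drp1LiKO, which differ by -3.25 log2, and genotype differences of 2.58 log2 in the non-Refed pair and -0.67 log2 in the Refed pair. Ddit4 did not change sign between the genotype differences, at 3.39 and 0.50 log2, and its refeeding differences were 0.27 log2 in Cont and -2.61 log2 in Drp1LiKO, the first within 2 SE of 0. P4ha1, a prolyl hydroxylase subunit of the proline list, had genotype differences of -0.48 and 0.49 log2, which differ by 0.967 log2. Among the cell markers, Col3a1 had genotype differences of 1.28 and -0.44 log2 (-1.72 log2 between them), S100a8 of -1.04 and 0.94 log2 (1.98 log2) and S100a9 of -1.11 and 1.04 log2 (2.15 log2). Col1a1 had refeeding differences of 0.68 log2 in Cont and -1.01 log2 in Drp1LiKO (-1.70 log2 between them). With 1 array a group none of these differences was tested.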

How the results depend on the processing

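The medians, each over those of the 10 genes that were measured in that comparison and setting, stayed above 0 under each alternative run. The size of medians and counts depended on how dim Cont signals were read. In the non-Refed genotype comparison the count of 6 became 2 with normexp and 1 with both sides well above background, and the median of 1.80 log2 became 0.66 with normexp, 0.66 with both sides well above background and 0.76 with the dim side at its bound. In the Refed genotype comparison the count of 6 became 3 under both of the first settings, and the median of 1.48 log2 became 0.77, 1.11 and 1.04 in the same order. With refeeding, the count of 2 in Cont became 1 under both of the first settings, and the count of 4 in Drp1LiKO became 1 with normexp, where the median of 0.91 became 0.55. Aldh18a1 turned from 1.11 to -0.13 log2 in the non-Refed genotype comparison with normexp, and Pycr1 turned from a higher value to -0.077 log2 with refeeding in Drp1LiKO with the median over its probes. Requiring both sides well above background leaves fewer genes. Normexp adds 50 units to each signal, which by itself pulls differences between dim signals towards 0. How much of the normexp shifts came from this addition was not tested, nor was the cause of the remaining shifts. Median scaling moved no value of a gene beyond its measurement SE. It still changed 2 counts, from 4 to 6 with refeeding in Drp1LiKO and from 6 to 7 in the Refed genotype comparison. The 1.5-fold threshold kept each count within 1.5 times. No paired analysis was possible because the labels give no replicate number shared by samples of different groups. No replicate could be left out, with 1 array a group, and signals near background limit Psat1 (in Cont), Mthfd2, Aldh1l2, Aldh18a1, Pycr1 and Phgdh.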
